A study of Mus musculus with 12 samples.

Results

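The mRNA levels of 10 genes that set up skeletal muscle and its nerve contact were compared between mice on chow, mice on HFD and mice on HFD given narciclasine (ncls). They were taken by symbol from the 22276 gene symbols with an expression value. Among them were the muscle-forming transcription factors Myod1, Myf5, Myf6 and Myog, the satellite cell factor Pax7 and the transcription factor Mef2c. The others were the acetylcholine receptor subunits Chrna1, Chrnd and Chrng, and the receptor-clustering kinase Musk. All 10 symbols were found once each. RNA of quadriceps muscle, BAT, WAT and liver was sequenced with 1 library per organ and group, 12 libraries in all. The mice were male C57BL/6J, and NCD or HFD was given between 8 wk and 17 wk of age. Ncls, a plant alkaloid, was gavaged weekly at 1 mg/kg for 7 wk starting at 10 wk of age, and the other mice received vehicle (veh). NCD-veh mice had chow and veh, HFD-veh mice had HFD and veh, and HFD-ncls mice had HFD and ncls, so the groups shared strain, sex and age. How many mice gave the RNA of a library is not stated in the sources used here. Values in threes are listed in the order NCD-veh, HFD-veh, HFD-ncls.

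Myod1, Myf5, Myf6 and Myog are basic helix-loop-helix factors that bind E-boxes, short DNA sites of the form CANNTG, and switch on the genes of the muscle fiber. Myf5 and Myod1 act in myoblasts, Myog drives their differentiation, and Myf6 is the family member most abundant in adult fibers. Pax7 marks satellite cells, the stem cells of muscle, and Mef2c is a MADS-box factor that works together with the helix-loop-helix factors and is also found in other cell types. The muscle acetylcholine receptor holds alpha, beta and delta subunits with a gamma subunit (Chrng) before birth and an epsilon subunit (Chrne) in its place in the adult, and denervated fibers return to the gamma form and to higher Myog. Brown adipocytes come from precursors that once expressed Myf5, and the interscapular depot lies against muscle.

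Values are FPKM, fragments per kilobase of transcript scaled to the mapped fragments, so that levels of different genes can be set beside each other. With 1 library per organ and group no spread between animals could be estimated, and no p-value is given. A difference was called where 2 libraries were over 2-fold apart on log2(FPKM + 0.1) and either of them reached 1 FPKM. The relative depths of the libraries ran from 0.708 to 1, and within muscle and within BAT they differed by little (0.952 to 1 and 0.955 to 0.999). For 7 members (Myod1, Myf5, Myf6, Myog, Pax7, Chrnd and Chrng) the FPKM values lay on whole numbers of fragments within 0.00163 of a fragment, so that exact Poisson 95% intervals of the fragment count could be given. These intervals and limits cover counting error only and say nothing of differences between mice.

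The muscle libraries were rich in fast-twitch fiber transcripts, with summed FPKM of the fast-twitch markers between 98929 and 104165. The brown adipocyte markers summed to 1907 to 2309 FPKM in BAT, so both organs carried their defining transcripts. The HFD-veh muscle library stood apart. Its 10 liver markers summed to 610 FPKM, against 23.8 in NCD-veh and 14.2 in HFD-ncls muscle, and its slow-twitch markers summed to 6.94 FPKM, against 44.4 and 47.5. In the 3 liver libraries no member was above 0.360 FPKM. The comparison of HFD-ncls with NCD-veh muscle does not use that library, and its log2 differences were 0.18 for Myod1, -0.14 for Myf5, -0.14 for Myf6, 0.20 for Myog, 0.91 for Pax7, 0.02 for Mef2c, -0.17 for Chrna1, 0.43 for Chrnd, -0.28 for Chrng and 0.15 for Musk. The BAT libraries held muscle transcripts to different extents. Fast-twitch markers summed to 2148 FPKM in NCD-veh BAT, to 885 in HFD-veh BAT and to 127 in HFD-ncls BAT.

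In the annotation of the mm9 genome all 10 genes are protein coding and overlap no other gene. Myod1 lies at chr7:53631844-53634462 (plus strand), Myog at chr1:136186581-136189124 (plus strand), Pax7 at chr4:139292977-139389445 (minus strand) and Mef2c at chr13:83643033-83806684 (plus strand). Myf5 (chr10:106919964-106923190) and Myf6 (chr10:106929916-106931785) are neighbours on the minus strand with 6725 bases between them. Chrnd (chr1:89087227-89096644) and Chrng (chr1:89102386-89108410) are neighbours on the plus strand with 5741 bases between them. Chrna1 is at chr2:73401272-73418395 (minus strand) and Musk at chr4:58298834-58390290 (plus strand). The paired genes had unlike levels. In NCD-veh muscle Myf6 was at 57.1 FPKM and Myf5 at 0.450, and Chrnd was at 0.386 FPKM and Chrng at 0.0214.

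A RefSeq promoter window (GRCm38.p6) was matched for 7 of the 10 members, all but Myod1, Myf6 and Chrnd. The 250 bases before the start site are shown for Myog and the receptor subunits Chrna1, Chrng and Chrne, a set whose levels in muscle and BAT are compared here and in which the gamma and epsilon genes stand in for each other. Sequences run 5′ to 3′ on the strand of the gene, and capitals mark every CANNTG, which reads the same on both strands.
Myog, chr1:134289754-134290003, plus strand: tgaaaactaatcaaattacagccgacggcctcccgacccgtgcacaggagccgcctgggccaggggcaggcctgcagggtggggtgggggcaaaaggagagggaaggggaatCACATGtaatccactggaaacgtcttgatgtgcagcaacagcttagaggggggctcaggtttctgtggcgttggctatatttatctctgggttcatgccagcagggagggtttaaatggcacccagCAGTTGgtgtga
Chrna1, chr2:73580339-73580588, minus strand: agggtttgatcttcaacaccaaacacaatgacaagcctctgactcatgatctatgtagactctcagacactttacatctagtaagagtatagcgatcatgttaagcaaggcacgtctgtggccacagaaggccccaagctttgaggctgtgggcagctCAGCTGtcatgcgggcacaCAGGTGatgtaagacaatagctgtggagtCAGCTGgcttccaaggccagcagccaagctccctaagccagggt
Chrng, chr1:87205561-87205810, plus strand: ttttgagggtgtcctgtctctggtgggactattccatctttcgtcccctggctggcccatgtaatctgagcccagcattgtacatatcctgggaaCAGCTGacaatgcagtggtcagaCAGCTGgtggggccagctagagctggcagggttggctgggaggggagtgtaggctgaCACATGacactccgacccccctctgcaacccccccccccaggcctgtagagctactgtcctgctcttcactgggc
Chrne, chr11:70619195-70619444, minus strand: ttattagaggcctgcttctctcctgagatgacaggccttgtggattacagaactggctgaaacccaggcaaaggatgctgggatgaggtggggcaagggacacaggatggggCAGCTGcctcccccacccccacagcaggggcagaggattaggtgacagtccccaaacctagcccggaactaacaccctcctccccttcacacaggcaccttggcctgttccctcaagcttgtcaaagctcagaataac
The Chrna1 and Chrng windows each held 3 CANNTG, of which 2 were of the more specific CAGCTG form. Of 32851 windows of the same length, 12.2% held 3 or more CANNTG and 1.26% held 2 or more CAGCTG. The Myog window held 2 CANNTG and no CAGCTG, while Chrne had a single site, which was of the CAGCTG form. At least 1 CANNTG was in 66.2% of all windows and at least 1 CAGCTG in 13.0%. The Musk window held 3 CANNTG, 1 of them CAGCTG, and those of Pax7 and Myf5 held none. A match of letters is a description of the window and was not tested as a binding site.

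In quadriceps muscle the 10 genes covered a wide range of levels, and their order was much the same in the 3 groups. Mef2c was highest (89.8 to 96.5 FPKM over the 3 libraries), followed by Myf6 (51.7 to 57.1), Myod1 (9.72 to 13.0) and Chrna1 (1.75 to 2.23). Myog (1.15 to 1.48) and Musk (1.17 to 1.35) overlapped each other. Chrnd (0.386 to 0.554), Myf5 (0.168 to 0.450) and Pax7 (0.163 to 0.393) also overlapped, so no order among them can be given. Chrng was lowest, at 0.0214 FPKM at most. Myf6, the factor of mature fibers, was thus above the 3 other members of its family in every muscle library.

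**Figure D1:**
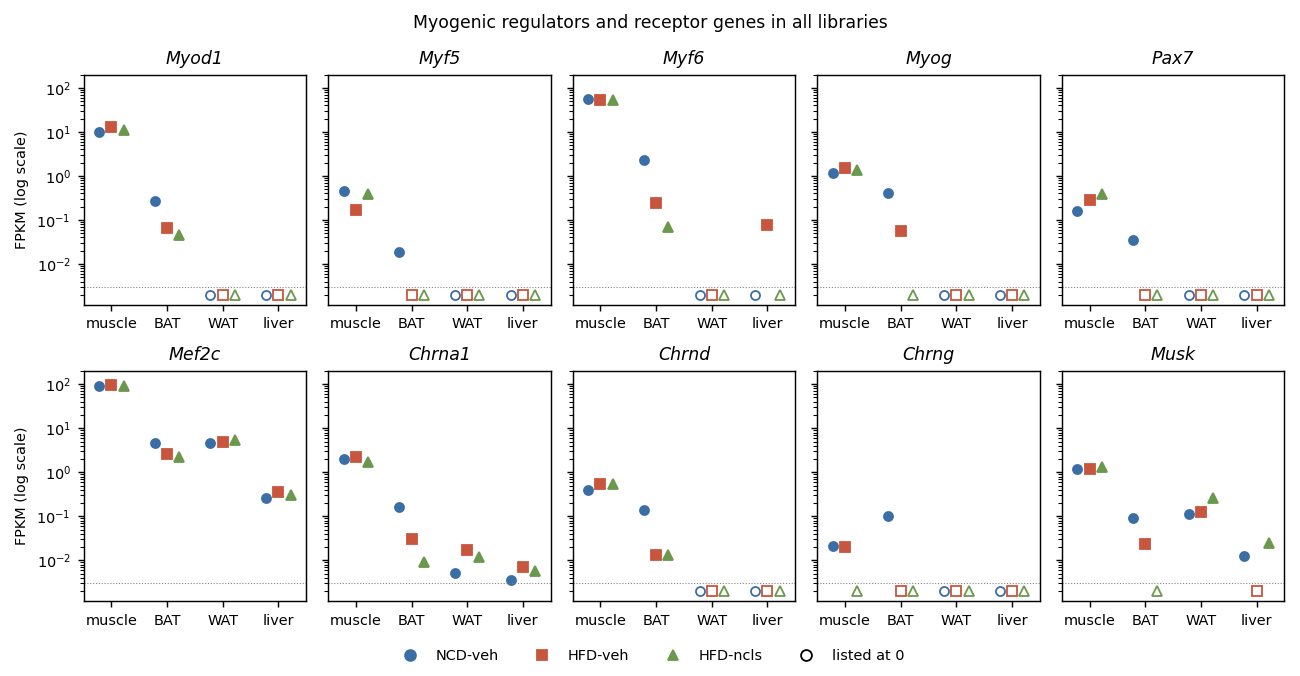
FPKM of each of the 10 genes (vertical axis, log scale) in the 12 libraries, grouped by organ on the horizontal axis, with 1 point per library; circles are NCD-veh, squares HFD-veh and triangles HFD-ncls, and open symbols under the dotted line are values listed at 0. Points of the 3 muscle libraries lie close together for Mef2c (89.8 to 96.5 FPKM) and Myf6 (51.7 to 57.1), while in BAT Myf6 runs from 2.28 in NCD-veh to 0.0702 in HFD-ncls.

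Between the muscle libraries none of the 10 genes was called in any comparison. In each comparison 6 members reached 1 FPKM, and none of these was over 1.4-fold apart either, where 13.2%, 13.9% and 8.88% of all genes were (HFD-veh against NCD-veh, HFD-ncls against HFD-veh and HFD-ncls against NCD-veh). Over all genes tested, 4.11% were called between HFD-veh and NCD-veh muscle, 3.8% between HFD-ncls and HFD-veh and 1.21% between HFD-ncls and NCD-veh. Without liver-enriched genes the first 2 of these shares were 2.17% and 1.94%. The median log2 difference over the 10 members was 0.13 for HFD-veh against NCD-veh, -0.06 for HFD-ncls against HFD-veh and 0.08 for HFD-ncls against NCD-veh. For the genes at 1 FPKM or more the medians were 0.03, 0.04 and 0.08, and for the 6 members at that level 0.13, -0.11 and 0.08.

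Among the helix-loop-helix factors Myod1 had the widest spacing of those above 1 FPKM. It was at 9.72, 13.0 and 11.02 FPKM, from 436, 613 and 511 fragments. HFD-veh was 1.34-fold above NCD-veh, and the counting intervals of these libraries (12.003 to 14.1 and 8.83 to 10.7 FPKM) did not overlap, while that of HFD-ncls (10.1 to 12.021) overlapped both. Myog, the differentiation factor, was at 1.15, 1.48 and 1.34 FPKM, from 40, 54 and 48 fragments, with counting intervals that all overlapped. Myf6 was at 57.1, 53.2 and 51.7 FPKM, so that its highest and lowest libraries were 1.10-fold apart.

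Myf5 and Pax7, the factors of myoblasts and satellite cells, were below 0.5 FPKM in each muscle library and rested on few fragments. Myf5 was at 0.450, 0.168 and 0.398 FPKM in muscle, from 23, 9 and 21 fragments. It was the single member over 2-fold apart at any level in muscle, with a log2 difference of -1.04 for HFD-veh against NCD-veh, and 4.28% of all genes were over 2-fold apart at any level in that comparison. The counting intervals of HFD-veh (0.0767 to 0.318 FPKM) and NCD-veh (0.285 to 0.676) overlapped, and HFD-ncls differed from NCD-veh by -0.14 on the log2 scale. Pax7 was at 0.163, 0.284 and 0.393 FPKM from 18, 33 and 45 fragments, lowest in NCD-veh and highest in HFD-ncls. The FPKM of HFD-ncls was 2.42-fold that of NCD-veh, a log2 difference of 0.91 with the pseudocount, and their counting intervals (0.287 to 0.526 and 0.0964 to 0.257 FPKM) did not overlap. The library depth that the steps of Pax7 imply with its annotated length was 83.1% of the lowest depth implied by the other genes on whole fragments, so its fragment numbers are less sure. Fewer satellite cells and less RNA per cell cannot be told apart in such bulk tissue.

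None of the other satellite cell markers was called in muscle. Of a list of 13, which includes the cell adhesion gene Cdh15 and the integrin Itga7, 7 reached 1 FPKM in each muscle comparison. Their median log2 difference was 0.19 for HFD-ncls against NCD-veh, with 5 higher and 2 lower. Of 17 other myogenic transcription factors, among them Mef2a and the E-proteins that pair with Myod1, none was called in muscle either. In HFD-ncls against NCD-veh 9 were higher and 4 lower, with a median of 0.19, and in HFD-ncls against HFD-veh 11 were higher and 2 lower, with a median of 0.16.

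Mef2c was the most evenly expressed of the 10 genes in muscle, with 89.8, 96.5 and 90.9 FPKM, a largest ratio of 1.07. It was also the one member with an FPKM above 1 in WAT, where it was at 4.65, 4.98 and 5.50 FPKM. In liver it was at 0.264, 0.360 and 0.300 FPKM. The muscle mean was 16.8-fold the highest WAT value and 257-fold the highest liver value.

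In muscle the epsilon subunit was far above the gamma subunit in all 3 groups. The gamma subunit Chrng was covered by 1, 1 and 0 fragments (0.0214 and 0.0204 FPKM and listed at 0 in HFD-ncls). The exact 95% upper limit of the count of 0 was 3.69 fragments, or 0.0765 FPKM in HFD-ncls. The epsilon subunit Chrne was at 10.1, 10.1 and 8.88 FPKM from 381, 401 and 346 fragments. The FPKM of Chrne was 472-fold that of Chrng in NCD-veh (exact 95% counting interval 84.1 to 18677) and 496-fold in HFD-veh (88.6 to 19655), with a Chrng count of 1 behind each ratio. Chrne overlaps 4930544D05Rik on the other strand, and since strand use in counting is not stated, reads of both genes cannot be told apart.

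Among the subunits kept at all ages, the alpha gene Chrna1, which carries the main part of the transmitter binding site, was at 1.99, 2.23 and 1.75 FPKM in muscle. HFD-ncls against HFD-veh gave a log2 difference of -0.33, and against NCD-veh of -0.17. The delta gene Chrnd was at 0.386, 0.546 and 0.554 FPKM from 29, 43 and 43 fragments, with overlapping counting intervals. The beta gene Chrnb1 was at 12.8, 11.2 and 11.2 FPKM. The Chrna1 values were below those of Chrnb1 and Chrne and above those of Chrnd in every muscle library. Each receptor holds a pair of alpha subunits, but mRNA levels do not give the number of subunits in it.

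Musk, the kinase that clusters receptors under the nerve ending, was at 1.21, 1.17 and 1.35 FPKM in muscle, with log2 differences no larger than 0.19. Of 17 other neuromuscular junction genes none was called in muscle in any comparison. Their median was 0.00 for HFD-ncls against NCD-veh, with 7 higher and 7 lower among those at 1 FPKM or more. For HFD-ncls against HFD-veh it was -0.12, with 4 higher and 10 lower, and for HFD-veh against NCD-veh it was 0.02, with 7 higher and 5 lower. The anchoring protein gene Rapsn was at 11.5, 13.4 and 11.8 FPKM and the acetylcholinesterase gene Ache at 17.4, 18.0 and 14.5 FPKM. Chrnb1, Chrne, Rapsn and Ache are named for their roles, after their values were seen.

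**Figure D2:**
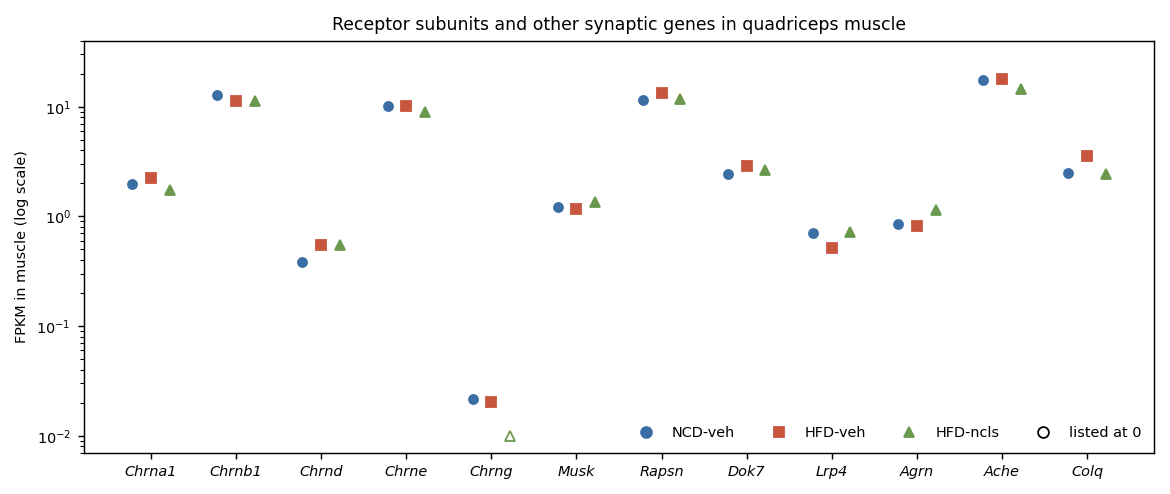
FPKM (vertical axis, log scale) of 5 receptor subunit genes, Musk and 6 further junction genes in the 3 muscle libraries, with 1 point per library; circles are NCD-veh, squares HFD-veh, triangles HFD-ncls, and the open symbol is a value listed at 0. Chrne lies between 8.88 and 10.1 FPKM and Chrng at 0.0214 or below.

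Genes that respond to denervation and activity were also read in muscle, since Myog, Chrna1, Chrnd and Chrng belong to that response. Of the 13 genes in the list, 9 reached 1 FPKM, and 2 were called in a comparison. Fbxo32, a ubiquitin ligase gene of muscle atrophy, was at 105, 54.0 and 120 FPKM, and was called for HFD-ncls against HFD-veh (log2 difference 1.14). Cdkn1a, a cell cycle inhibitor, was at 6.49, 3.02 and 4.30 FPKM and was called for HFD-veh against NCD-veh (log2 difference -1.08). None of the 13 was called between HFD-ncls and NCD-veh, where the HFD-veh library has no part, and the denervation gene Ncam1 was at 1.00, 1.10 and 1.09 FPKM.

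In BAT every one of the 10 genes was highest in NCD-veh. The numbers of members above 0 were 10, 7 and 5. Some of these members rested on 1 or 2 fragments and cannot be told from absent. They were Myf5 in NCD-veh, Myog and Chrnd in HFD-veh, and Myod1, Myf6 and Chrnd in HFD-ncls. In HFD-veh against NCD-veh all 10 were lower, 6 of them over 2-fold at any level, where 1.94% of all genes were over 2-fold lower at any level. With the FPKM minimum, which only Myf6 and Mef2c reached, 1 was called as lower (Myf6), against 2.01% of all genes called as lower. In HFD-ncls against NCD-veh the numbers were the same, 10 lower, 6 over 2-fold and 1 called, against 2.52% of all genes over 2-fold lower at any level and 2.74% called as lower. These comparisons share the NCD-veh library. The median log2 difference over all 10 members, most of them under 1 FPKM, was -1.02 and -1.05. The genes at 1 FPKM or more had medians of -0.04 and -0.06, and the 2 members at that level -1.79 and -2.40. In HFD-ncls against HFD-veh none was called (1.97% of all genes were), with a median of -0.20 over the members, 6 lower and 1 higher. The higher one was Chrnd, on 1 fragment in each library. Among the lower ones, Myod1 went from 3 to 2 fragments, Myog from 2 to 0 and Myf6 from 7 to 2. Directions on so few fragments carry little weight.

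**Figure D3:**
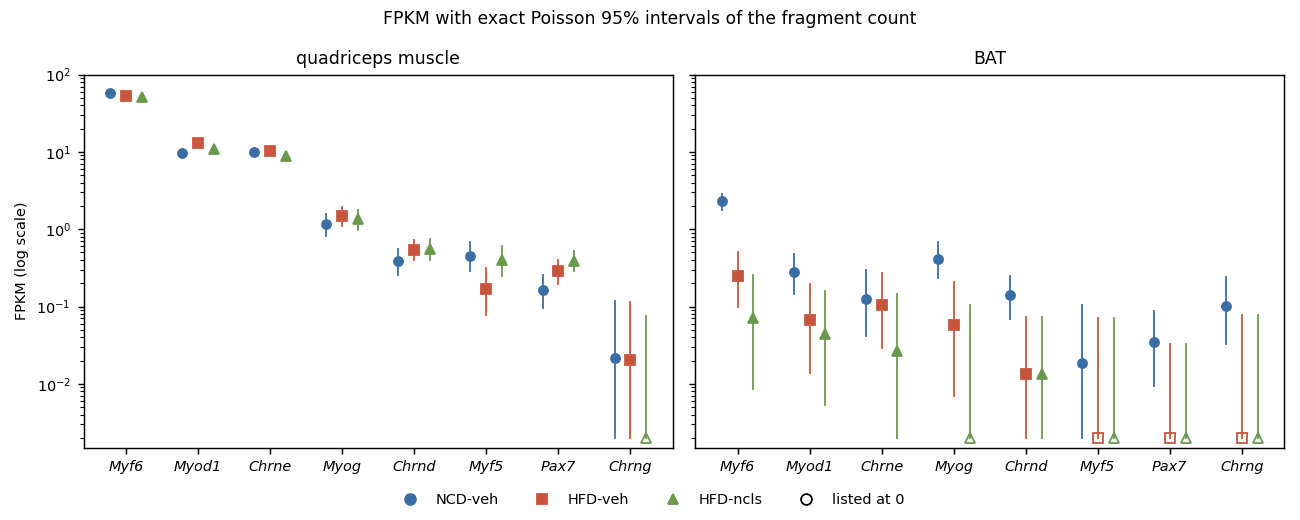
FPKM (vertical axis, log scale) of 8 genes whose values lie on whole fragments, in muscle (left) and BAT (right), with 1 point per library and exact Poisson 95% intervals as lines; circles are NCD-veh, squares HFD-veh, triangles HFD-ncls, open symbols are values listed at 0 and lines reaching the open-symbol level extend below the axis shown. In BAT the intervals of Myf6 in NCD-veh (1.77 to 2.89 FPKM) and HFD-veh (0.0987 to 0.506) do not overlap.

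Of the 4 helix-loop-helix members Myf6 had the highest BAT level in each group. It was at 2.28, 0.245 and 0.0702 FPKM in BAT, from 68, 7 and 2 fragments, with log2 differences from NCD-veh of -2.79 and -3.81. The counting interval of NCD-veh (1.77 to 2.89 FPKM) overlapped neither of the others (0.0987 to 0.506 and 0.00851 to 0.254). Myod1 was at 0.276, 0.0666 and 0.0444 FPKM from 13, 3 and 2 fragments. Its NCD-veh interval (0.147 to 0.472 FPKM) overlapped both others. Myog was at 0.412 and 0.0574 FPKM in NCD-veh and HFD-veh, from 15 and 2 fragments, and was listed at 0 in HFD-ncls. Its NCD-veh interval (0.231 to 0.679 FPKM) lay above that of HFD-veh (0.00695 to 0.207). The upper limit of the count of 0 in HFD-ncls was 0.106 FPKM, also below the NCD-veh interval. Myf5 and Pax7 were seen in NCD-veh BAT alone, with 1 and 4 fragments, and differences from the other groups were not detectable at this depth.

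The receptor genes also had their highest BAT value in NCD-veh, though Chrna1 and Musk have no counting intervals and those of Chrnd and Chrng overlapped between groups. Chrna1 was at 0.166, 0.0302 and 0.00932 FPKM. Chrnd was at 0.140, 0.0133 and 0.0133 FPKM from 11, 1 and 1 fragments. Its NCD-veh interval (0.0697 to 0.250 FPKM) overlapped those of HFD-veh and HFD-ncls, which reached 0.0739 and 0.0740 FPKM. Chrng was at 0.102 FPKM in NCD-veh from 5 fragments and listed at 0 in both other groups. The upper limits there, 0.0786 and 0.0788 FPKM, lay inside its NCD-veh interval (0.0331 to 0.238 FPKM). Musk was at 0.0899 and 0.0237 FPKM and listed at 0 in HFD-ncls. Mef2c was at 4.59, 2.61 and 2.26 FPKM, and its highest and lowest BAT libraries were 2.03-fold apart, the smallest such ratio among the 5 members above 0 in all of them.

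In NCD-veh the embryonic subunit made up a larger share of the summed gamma and epsilon FPKM in BAT than in muscle, on few fragments. In NCD-veh BAT, Chrng (0.102 FPKM, 5 fragments) and Chrne (0.126 FPKM, 5 fragments) were about level, and Chrng was 44.7% of their sum (exact binomial 95% interval 15.7% to 77.8%). In NCD-veh muscle it was 0.212% of the sum (0.00535% to 1.17%), from 1 and 381 fragments, so that these counting intervals did not overlap. In HFD-veh and HFD-ncls BAT Chrng was listed at 0 beside 4 and 1 fragments of Chrne, which allows a share of up to 55.0% and 96.9%. Chrng was the one member with a higher FPKM in NCD-veh BAT than in any muscle library. The counting intervals of the Chrng level itself in NCD-veh BAT (0.0331 to 0.238 FPKM) and in NCD-veh muscle (0.000542 to 0.119) overlapped. The BAT values of Chrne were below its values in liver (0.169, 0.206 and 0.169 FPKM), where Chrng was listed at 0. In WAT Chrne was at 0.0631 and 0.0974 FPKM and listed at 0 in HFD-ncls. Its low BAT level was thus also seen in organs without Chrng, and the overlap with 4930544D05Rik applies to these values too.

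The BAT level of each gene was then expressed as a percentage of its muscle level in the same group and set beside that of contractile genes. In NCD-veh, 11 fast-twitch markers were in BAT at 1.19% to 5.32% of their muscle level, with a median of 1.96% (the marker Myh4 had no value in muscle). Myod1 (2.84%), Myf6 (3.997%), Myf5 (4.14%) and Mef2c (5.11%) lay inside that range. The other 6 members lay above it, with Musk at 7.45%, Chrna1 at 8.36%, Pax7 at 21.2%, Myog at 35.7%, Chrnd at 36.1% and Chrng at 476%. In BAT, Pax7 rested on 4 fragments and Chrng on 5, with 1 Chrng fragment in muscle. Myh1 alone set the top of the range, and the next marker, Myh2, was at 3.39%, below Myf6, Myf5 and Mef2c. Many genes high in muscle also lay above the range, since the upper quartile of 421 such genes, described below, was 5.91%. The adult subunit Chrne was at 1.25% and Rapsn at 1.93%. Slow-twitch markers were higher too, at 13.7% to 327%, with a median of 80.3%.

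**Figure D4:**
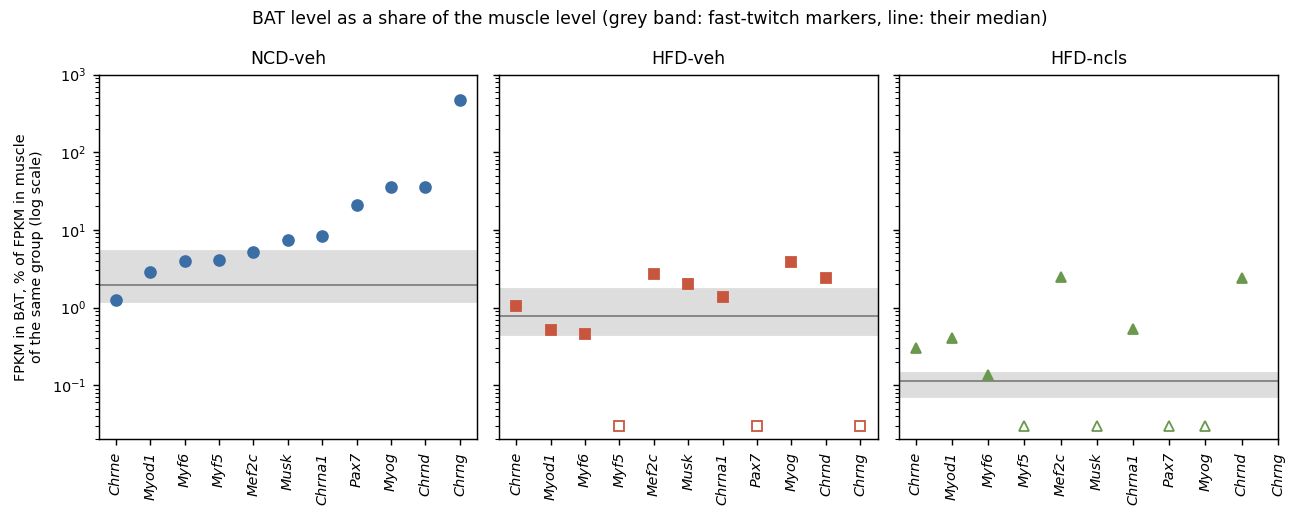
FPKM in BAT as a percentage of the FPKM in muscle of the same group (vertical axis, log scale) for the 10 genes and Chrne, with 1 panel per group; the grey band spans 11 fast-twitch markers, the line is their median, open symbols are genes listed at 0 in BAT, and Chrng has no ratio in HFD-ncls. In NCD-veh 6 members lie above the band, up to Chrng at 476%, and Chrne lies in the band at 1.25%.

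Genes that are high in muscle and low in WAT and liver gave a wider comparison for these shares. Among 421 such genes (mean muscle FPKM of at least 1 and at least 20-fold over the median of WAT and liver) the NCD-veh share had a median of 2.80% and quartiles of 1.76% and 5.91%. The share of Myog exceeded that of 94.8% of them, Chrna1 of 81.2%, Mef2c of 70.5%, Myf6 of 65.6% and Myod1 of 50.6%, while Chrne exceeded 15.9%. These ranks held for NCD-veh and were different in the other groups. In HFD-veh they were 75.1% for Myog, 67.7% for Mef2c, 50.4% for Chrna1, 15.7% for Myod1, 14.01% for Myf6 and 39.2% for Chrne. In HFD-ncls Myog was listed at 0 in BAT, and the ranks were 77.0% for Mef2c, 54.4% for Chrna1, 50.4% for Myod1, 29.7% for Myf6 and 41.8% for Chrne. In HFD-veh BAT the fast-twitch median was 0.779%, and 4 members lay above all fast-twitch markers, Myog at 3.87%, Mef2c at 2.71%, Chrnd at 2.43% and Musk at 2.03%, with Myog and Chrnd on 2 and 1 fragments. The 421 genes had a median of 1.33% and an upper quartile of 3.86% in HFD-veh. That quartile was above the highest fast-twitch marker (1.72%), so many of the 421 genes lay above all these markers too. In HFD-ncls the fast-twitch median was 0.112%, and Mef2c (2.48%), Chrnd (2.40%), Chrna1 (0.532%) and Myod1 (0.403%) lay above all fast-twitch markers, Chrnd and Myod1 on 1 and 2 fragments. The 421 genes had a median of 0.398% and an upper quartile of 2.11% in HFD-ncls. That median was above the highest fast-twitch marker (0.144%), so most of the 421 genes lay above all these markers too.

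When the muscle level times the fast-twitch median share was taken off each BAT value, Myog was left at 0.389 FPKM of 0.412 in NCD-veh, Chrnd at 0.132 of 0.140, Chrna1 at 0.127 of 0.166, Myf6 at 1.16 of 2.28 and Myod1 at 0.0859 of 0.276. These remainders depend on the share taken off. In NCD-veh the fast-twitch shares ran from 1.19% to 5.32%. Those of Myf6 (3.997%) and Myod1 (2.84%) lay inside that range, and those of Myog, Chrnd and Chrna1 above it. In HFD-veh nothing was left of Myf6 and Myod1, and 0.0458 FPKM of Myog. The summed fast-twitch markers were at 2148, 885 and 127 FPKM, and Myod1, Myf6, Myog, Mef2c, Chrna1 and Musk fell in the same order. Chrnd was at 0.0133 FPKM in both HFD groups, and Myf5, Pax7 and Chrng were listed at 0 in both. The summed slow-twitch markers were highest in HFD-veh, at 23.99, 29.6 and 3.09 FPKM. Among the denervation and activity genes Ncam1, which is also made by nerve-associated cells, was at 0.766, 0.240 and 0.192 FPKM in BAT. The part of muscle tissue in the BAT values of the members was not tested beyond these values.

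Among all genes in BAT 4.29% were called in either direction for HFD-veh against NCD-veh and 4.1% for HFD-ncls against NCD-veh. Of 17 other myogenic transcription factors 9 reached 1 FPKM, and 2 were called, both inhibitors of helix-loop-helix factors. Id1 was at 33.7, 75.8 and 51.0 FPKM in BAT, and Id3 at 30.5, 64.6 and 39.4 FPKM, each called as higher in HFD-veh than in NCD-veh (log2 differences 1.17 and 1.08). Of the satellite cell list 1 of 7 was called, Heyl, a Notch target, at 4.58, 6.72 and 9.51 FPKM and called for HFD-ncls against NCD-veh. Of the junction genes 8 reached 1 FPKM in BAT, and none was called. Of the denervation and activity genes, the embryonic and neonatal myosins Myh3 (1.71, 0.308 and 0.0389 FPKM) and Myh8 (7.72, 2.24 and 0.310 FPKM) were called against NCD-veh for both HFD groups, with the higher value in NCD-veh. Myh8 was also called for HFD-ncls against HFD-veh, with the lower value in HFD-ncls. Gadd45a, a stress-induced gene, was at 5.05, 1.92 and 2.20 FPKM and was likewise called against NCD-veh for both HFD groups. The kinase gene Sik1 was called for HFD-veh against NCD-veh, as higher (9.95 against 4.50 FPKM). Trim63, a ubiquitin ligase gene of muscle, was at 1.90, 0.936 and 0.240 FPKM and was called for HFD-ncls against NCD-veh (log2 difference -2.55). In BAT, Myh3 and Myh8 were at 2.85% and 1.72% of the muscle level in NCD-veh, inside the range of the fast-twitch markers. Neither was low in adult muscle, with Myh3 at 59.9, 49.3 and 56.1 FPKM and Myh8 at 448, 432 and 508 FPKM. The fast-twitch marker Myh2 was at 552, 487 and 609 FPKM there. The related gene Myh4 had no value in the muscle libraries. Which fibers gave the BAT values of Myh3 and Myh8 was not tested.

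In WAT and liver most of the 10 genes were not seen. Myod1, Myf5, Myog, Pax7, Chrnd and Chrng were listed at 0 in all 6 libraries, and Myf6 in all but HFD-veh liver, where 2 fragments gave 0.0781 FPKM. The fast-twitch markers summed to 69.9 FPKM in that library, against 2.16 in NCD-veh and 3.14 in HFD-ncls liver. Chrna1 was above 0 in all 6, at 0.00366 to 0.0171 FPKM. Musk was at 0.112, 0.129 and 0.256 FPKM in WAT, and at 0.0125 and 0.0253 FPKM in NCD-veh and HFD-ncls liver. WAT was thus the organ with the highest Musk level after muscle, with all 3 WAT values above those of BAT. None of the members was called in WAT or liver in any comparison, where 9.11% of all genes in WAT and 5.12% in liver were called for HFD-veh against NCD-veh, 1.7% and 2.31% for HFD-ncls against HFD-veh, and 9.59% and 5.2% for HFD-ncls against NCD-veh.

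Finally, the genes with the most similar pattern over the 12 libraries were listed for the 6 members at 1 FPKM or more in a library, by Pearson r of log2(FPKM + 0.1) over 13647 genes. They were the chloride channel gene Clcn1 (r = 0.998) and Ctxn3 (r = 0.998) for Myod1, Lrrc30 (r = 0.999) and the calcium channel subunit gene Cacng1 (r = 0.998) for Myf6, and Tceal7 (r = 0.998) and Klhl40 (r = 0.996) for Myog. For Mef2c they were Msi2 (r = 0.997) and the kinesin gene Kif3c (r = 0.995), for Chrna1 Itgb6 (r = 0.999) and Hspb3 (r = 0.998), and for Musk Mdga1 (r = 0.996) and Bin1 (r = 0.992). The number of genes with r over 0.98 was largest for Myod1 (161) and smallest for Musk (27). The 12 points of each r are 4 organs with 3 libraries each, so they are not independent, and no p is given.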

How the data were processed

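RNA of 4 organs and 3 groups of mice was sequenced as 12 libraries, 1 per organ and group. Per the labels, TopHat, Cufflinks and the mm9 genome were used, and the authors deposited FPKM values with 1 value per RefSeq gene symbol and library. Total fragment counts are not given, and no count model was applied. Samples were grouped by their titles, and no column was left out. Python 3.11.15, scipy 1.17.1, matplotlib 3.10.9, pandas 2.3.3 and numpy 2.4.6 were used. Differences were taken on log2(FPKM + 0.1), and a call required over 2-fold and an FPKM of at least 1 in 1 of the libraries. Whole fragments were accepted within 0.1 of a fragment. Relative depth came from the steps of FPKM values up to 0.05. Of the symbols, 86 lacked a value in at least 1 library and were left out for that organ. The calls and depths were checked on simulated libraries. Genes named were the 10 members, list genes called in muscle or BAT (at most 3 per direction, list and comparison) and the 2 genes most like each member in pattern. Marker lists of other tissues are given as sums. Chrnb1, Chrne, Rapsn, Ache, Ncam1 and list genes named without values were added after their values were seen. The members and lists were chosen with earlier results of these data known. Gene positions are from the mm9 annotation and promoter windows from RefSeq GRCm38.p6. Alternatives covered the pseudocount, the filter, the threshold, rescaling by the median ratio, removal of liver-enriched genes and subtraction of a muscle share in BAT. Some genes of the fixed lists are not reported here.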

Additional observations from a re-analysis of the deposited data

How the results depend on the processing

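In muscle the count of called members stayed at 0 under every alternative but the removal of the filter on FPKM, which gave 1 (Myf5) for HFD-veh against NCD-veh. In BAT the count of 1 for HFD-veh against NCD-veh became 6 with no filter, 0 with an FPKM of at least 5 and 2 with a threshold of 1.4-fold. The count of 1 for HFD-ncls against NCD-veh became 6, 0 and 2 under the same settings and 2 with a pseudocount of 0.01. The count of 0 for HFD-ncls against HFD-veh became 1 with no filter. The BAT medians of the members moved with the pseudocount, from -1.02 to -2.14 (0.01) and -0.17 (1) for HFD-veh against NCD-veh and from -1.05 to -2.94 and -0.19 for HFD-ncls against NCD-veh. Their direction did not change. Rescaling by the median ratio changed no count and no direction of these results. After the muscle share was subtracted, the members' medians in BAT were -0.95 for HFD-veh and -0.87 for HFD-ncls against NCD-veh, with 1 call each as before, and 0 for HFD-ncls against HFD-veh. Under it Myf6 went to -3.66 for HFD-veh against NCD-veh, and for HFD-ncls against NCD-veh Myod1 went from -1.38 to -0.49 and Mef2c from -0.99 to -0.38. Myod1 and Myf6 stood at 0.40 and 0.17 for HFD-ncls against HFD-veh in BAT, where they had been at -0.21 and -1.02 and had not been called. Without liver-enriched genes the called genes in muscle went from 368 to 183 for HFD-ncls against HFD-veh and from 394 to 203 for HFD-veh against NCD-veh, because such genes were left out. No paired analysis was possible because each group has 1 library per organ and the labels carry no replicate numbers, and for the same reason no library could be left out within a group. Below about 3 fragments, or 0.0258 FPKM for Pax7 to 0.106 FPKM for Myf6 in muscle and BAT, a member could not be told from absent, and single libraries do not show how far mice of a group differ.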
